A study of Rattus norvegicus with 12 samples.

Results

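Sterol biosynthesis and its feedback control were followed in rat ventral midbrain cultures through 8 genes: Idi1, Insig1, Cyp51, Msmo1, Fdps, Fdft1, Hmgcs1 and Sqle. The genes were listed by name, as enzymes of the pathway or known targets of its transcription factors, with earlier results of these data known. Every probe set whose single symbol in the array's annotation was one of them was taken. This gave 10 of 15866 probe sets, for 7 of the 8 genes and of 10411 genes with a symbol of their own, with 2 probe sets each for Idi1, Cyp51 and Fdft1, called here the brighter and the dimmer one by their mean over all arrays. No probe set carried the symbol Hmgcs1 alone, and this gene was not analysed here. The brighter Cyp51 probe set has the suffix _s_at, which marks probes that may be shared with another transcript.

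Cells of the ventral midbrain of CD1 rat embryos at E12 were cultured in serum-free medium with bFGF at 20 ng/ml and SHH at 50 ng/ml for 6 days, and for 3 days without these factors. After 9 days in vitro, the cultures for 6 arrays were depolarized for 2 h with 56 mM KCl, a treatment that opens voltage-gated calcium channels, and those for the other 6 were kept in control medium. Depolarized cultures were collected 30 min (replicates 1 to 3) or 2 h (replicates 4 to 6) after the end of depolarization, and the controls at the matching times, which made 4 groups of 3 Affymetrix arrays. The labels name no mutation or transgene, and all 4 groups shared the growth factors and their withdrawal. Embryos from 4 pregnant rats had been mixed into 3 groups, so the spread between arrays is that of pooled cultures and not of single animals. The labels do not say whether both collection times came from 1 preparation, so collection time and preparation cannot be told apart.

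In cholesterol synthesis, acetyl-CoA is turned into mevalonate and then into isoprenyl diphosphates, which are joined to farnesyl diphosphate and squalene and folded into lanosterol, the precursor of cholesterol. The transcription factors of the SREBP family switch on most genes of this path when sterols in the endoplasmic reticulum are low: SCAP carries SREBP to the Golgi, where proteases release its active part, while INSIG proteins hold SCAP back when sterols are plentiful. Cells of the brain make their own cholesterol, because lipoproteins of the blood do not cross the blood-brain barrier.

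The promoters of measured members with a window are shown because this family is known for shared short regulatory letters near its start sites. RefSeq windows of the rat build GRCr8 ran from 250 bases before to 50 bases after the start of the gene. They were matched by symbol for 6 of the 8 members, all but Fdft1 and Sqle. The windows of the 5 measured genes among these 6 are given 5′ to 3′ on the strand of the gene. The motifs searched on both strands were the sterol regulatory element of the LDL receptor type (TCACNCCAC) and a shorter form contained in it (CACNCCAC). The search also took the CCAAT box bound by NF-Y (CCAAT), the full cyclic AMP response element (TGACGTCA), its half-site contained in it (TGACG) and the E-box (CACGTG). Variants of these letters were not searched. Capitals mark the matches, in either orientation. The windows lie at chr17:66547475-66547774 on the minus strand for Idi1, chr4:8057720-8058019 on the minus strand for Insig1, chr4:30991443-30991742 on the plus strand for Cyp51, chr16:29746863-29747162 on the plus strand for Msmo1 and chr2:176804767-176805066 on the minus strand for Fdps.
Idi1: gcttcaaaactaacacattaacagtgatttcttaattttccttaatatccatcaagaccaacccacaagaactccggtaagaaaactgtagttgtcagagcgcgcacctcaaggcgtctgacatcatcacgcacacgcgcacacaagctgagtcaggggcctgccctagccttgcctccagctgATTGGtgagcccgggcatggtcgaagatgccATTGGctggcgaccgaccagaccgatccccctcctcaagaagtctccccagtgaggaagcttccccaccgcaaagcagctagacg
Fdps: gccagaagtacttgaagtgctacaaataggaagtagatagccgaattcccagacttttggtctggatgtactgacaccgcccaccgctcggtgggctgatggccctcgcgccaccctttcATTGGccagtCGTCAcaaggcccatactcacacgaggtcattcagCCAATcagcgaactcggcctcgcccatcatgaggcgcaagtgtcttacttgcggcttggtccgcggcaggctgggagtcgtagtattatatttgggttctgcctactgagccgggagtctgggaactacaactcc
Cyp51: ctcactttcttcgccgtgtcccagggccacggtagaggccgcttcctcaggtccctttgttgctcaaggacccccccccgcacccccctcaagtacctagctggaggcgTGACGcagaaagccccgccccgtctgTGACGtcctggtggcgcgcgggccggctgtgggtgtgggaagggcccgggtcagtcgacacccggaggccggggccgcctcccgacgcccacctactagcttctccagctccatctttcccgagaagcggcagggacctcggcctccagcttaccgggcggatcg
Msmo1: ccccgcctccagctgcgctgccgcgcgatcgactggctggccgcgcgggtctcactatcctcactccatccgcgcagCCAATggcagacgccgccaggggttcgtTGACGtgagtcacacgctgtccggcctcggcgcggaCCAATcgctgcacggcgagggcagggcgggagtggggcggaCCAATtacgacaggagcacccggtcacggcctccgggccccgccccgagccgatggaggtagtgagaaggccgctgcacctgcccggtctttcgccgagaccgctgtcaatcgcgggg
Insig1: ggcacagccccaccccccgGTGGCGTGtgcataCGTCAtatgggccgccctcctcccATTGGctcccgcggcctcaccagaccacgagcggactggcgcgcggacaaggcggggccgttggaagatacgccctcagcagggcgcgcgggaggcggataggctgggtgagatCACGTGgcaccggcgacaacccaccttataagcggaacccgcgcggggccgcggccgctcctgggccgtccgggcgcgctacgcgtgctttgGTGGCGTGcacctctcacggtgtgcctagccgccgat

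The CCAAT box occurred in the windows of Idi1, Insig1, Msmo1, Fdps and Hmgcs1, which is 5 of the 6 member windows, in 9 of 11 windows of other sterol enzymes, and in 37.5% of 33465 rat windows. The half-site TGACG was found in Insig1, Cyp51, Msmo1 and Fdps, or 4 of 6 members, in 5 of 11 other enzymes and in 21.2% of all windows. In the Fdps window a half-site at -120 lay between CCAAT boxes at -130 and -85. The shorter sterol element stood in the Insig1 window at -231 and 14 (5.8% of all windows), and Insig1 also held CACGTG at -79 (6.42% of all windows). Neither TCACNCCAC nor TGACGTCA was among the letters of any member window, against 1.12% and 1.83% of all windows. A match describes the letters of the window and was not tested for binding.

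Arrays had median levels of 8.32 to 8.43 on the log2 scale, and arrays of 1 group correlated across probe sets at 0.9957 to 0.9979, against 0.9717 to 0.9922 for arrays of different groups. Of the dopaminergic markers, 8 of 10 were measured, Th among them, but without detection calls the arrays do not show which of these are expressed. The values of the table are log2 expression, on which 1 unit is a change of 2-fold. Levels of different probe sets are not comparable, so each is set against itself in another group. The summed levels of marker lists given below add linear levels of several probe sets, so the brightest weigh most. Each sum is likewise set only against itself in another group. In such bulk cultures, more cells that express a gene and more RNA per cell cannot be told apart.

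At 30 min after depolarization, 6 of the 7 measured genes were higher in depolarized cultures than in controls, and Fdft1 was lower. Idi1, Cyp51, Insig1 and Msmo1 were between 2.45-fold and 3.23-fold higher, Sqle 1.95-fold and Fdps 1.45-fold. By probe sets, 8 of 10 rose and 2 fell (limma, adjusted p under 0.05), where 24% of all probe sets were called, 10.8% higher and 13.1% lower. The median difference of the 10 probe sets was 1.35, against 0.01 over all probe sets. Since the genes were chosen with earlier results of these data known, this contrast is a description and no independent test. Depolarized and control arrays did not overlap for 9 of the 10 (8 above and 1 below), where 36.8% of all probe sets did not overlap, 17.9% above and 18.9% below. After median centring of the arrays, 58.9% of all calls were higher, against 45.2% without it.

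**Figure D1:**
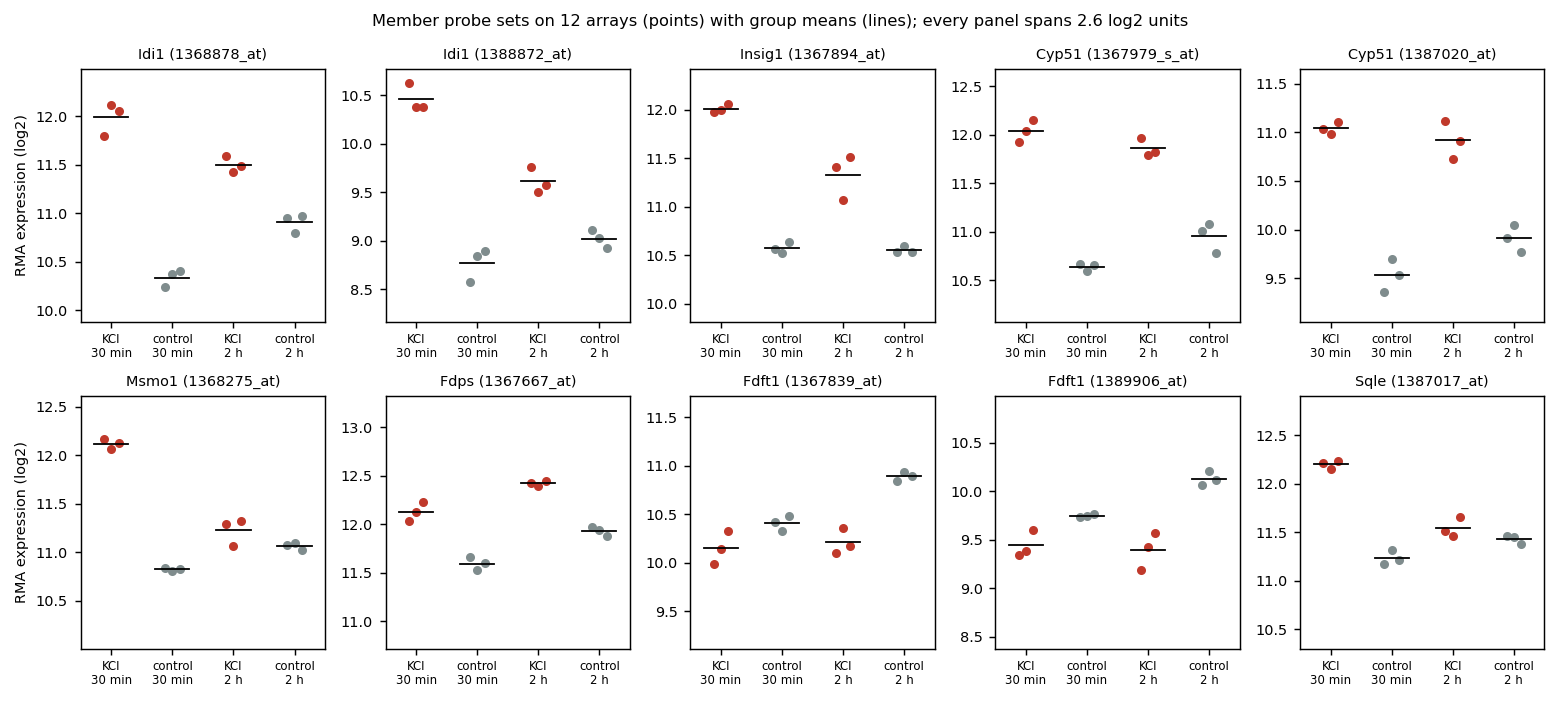
Log2 expression (vertical axes) of the 10 probe sets of the 7 measured genes, 1 panel each, on the 12 arrays in groups of 3 (horizontal axis), with points for arrays, lines for group means and the probe set's identifier above its panel. Idi1 separates all 4 groups, Msmo1 and Sqle are high at 30 min after depolarization alone, and Fdft1 is lowest in the depolarized groups.

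Idi1 encodes the isomerase that interconverts the 2 isoprenyl diphosphates from which all isoprenoids are built. Its brighter probe set had 11.80, 12.11 and 12.06 on depolarized arrays at 30 min, against 10.24, 10.37 and 10.40 on control arrays. At 2 h it had 11.59, 11.43 and 11.49 on depolarized arrays, against 10.96, 10.80 and 10.97 on controls. All depolarized arrays lay above all controls at both times. The difference was 1.65 (SE 0.09, limma adjusted p = 2.4e-09) at 30 min and 0.59 (SE 0.09, adjusted p = 0.000119) at 2 h, and the 2 h response was smaller by 1.06 (adjusted p = 3.13e-05 for the test of the difference between the responses). The dimmer probe set gave 10.62, 10.38 and 10.38 on depolarized arrays at 30 min against 8.57, 8.84 and 8.90 on controls, and 9.76, 9.50 and 9.57 on depolarized arrays at 2 h against 9.11, 9.03 and 8.92 on controls. Its groups were apart at both times as well, with differences of 1.69 and 0.59 (adjusted p = 6.09e-09 and 0.000358). Among all 15866 probe sets, those of Idi1 ranked 34 and 31 from the top at 30 min, and 326 and 333 at 2 h.

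Fdps encodes farnesyl diphosphate synthase, whose product stands at the point where the path to sterols parts from that to protein prenylation. It had 12.03, 12.13 and 12.23 on depolarized arrays at 30 min, against 11.66, 11.52 and 11.60 on controls. The 2 h arrays gave 12.43, 12.39 and 12.45 after depolarization, against 11.97, 11.94 and 11.88 in controls. Each group lay apart from the other 3, and Fdps was the only member with its highest group at 2 h after depolarization. It rose by 0.54 at 30 min (SE 0.07, adjusted p = 1.47e-05) and by 0.50 at 2 h (SE 0.07, adjusted p = 5.96e-05). Between these responses the difference was -0.04 (SE 0.09, adjusted p = 0.859), and it changed sign to 0.01 without depolarized replicate 3.

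Fdft1 encodes squalene synthase, the first enzyme committed to sterols, and was the member with lower levels after depolarization. At 30 min, its brighter probe set read 9.99, 10.14 and 10.33 on depolarized arrays, against 10.43, 10.33 and 10.49 on controls. The depolarized and control ranges touched there, with replicate 3 after depolarization level with the lowest control. At 2 h it read 10.10, 10.36 and 10.18 on depolarized arrays, against 10.84, 10.94 and 10.90 on controls. The dimmer probe set read 9.34, 9.39 and 9.60 on depolarized arrays at 30 min against 9.74, 9.74 and 9.77 on controls, and 9.19, 9.42 and 9.57 on depolarized arrays at 2 h against 10.07, 10.21 and 10.11 on controls. For both probe sets every depolarized array at 2 h lay below every control. Fdft1 fell by 0.68 and 0.74 at 2 h (SE 0.09 each, adjusted p = 4.15e-05 and 2.75e-05), which ranked 64 and 41 from the bottom of all probe sets.

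The 30 min fall of Fdft1 was small and rested on single arrays. It amounted to 0.26 at the brighter probe set (adjusted p = 0.0375) and 0.31 at the dimmer one (adjusted p = 0.0181). The first call was lost without depolarized replicate 1 or 2 or control replicate 1 or 3 (adjusted p between 0.0917 and 0.174), and the second without depolarized replicate 1 or 2 or control replicate 3 (adjusted p between 0.0558 and 0.0750). After median centring the first was at an adjusted p of 0.0968. The response at 2 h was lower than that at 30 min by 0.42 and 0.43 (adjusted p = 0.0331 and 0.0338), calls that were lost at the brighter probe set without depolarized replicate 2, 3, 4 or 6 or control replicate 1, 2, 5 or 6, and at the dimmer one without depolarized replicate 3 or 4 or control replicate 1, 2, 3, 5 or 6. Quantile normalization ended both (adjusted p = 0.0830 and 0.0683), as did the loess correction (adjusted p = 0.0636 and 0.0503).

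Sqle encodes squalene epoxidase, a rate-limiting oxygen-dependent step of the path. It read 12.21, 12.15 and 12.23 on depolarized arrays at 30 min, against 11.17, 11.32 and 11.21 on controls, with no overlap. At 2 h the depolarized arrays read 11.51, 11.46 and 11.65, against 11.46, 11.45 and 11.38 on the controls. The lowest depolarized array and the highest control met at 2 h. Sqle rose by 0.96 at 30 min (SE 0.07, adjusted p = 4.12e-08), the 2 h difference of 0.11 did not pass the test (SE 0.07, adjusted p = 0.256), and the responses differed by -0.85 (adjusted p = 2.64e-05).

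Cyp51 encodes the lanosterol demethylase, the cytochrome P450 that opens the last stretch of the path. The brighter probe set read 11.92, 12.04 and 12.16 on depolarized arrays at 30 min against 10.67, 10.60 and 10.66 on controls, and 11.96, 11.79 and 11.82 on depolarized arrays at 2 h against 11.0, 11.08 and 10.78 on controls. The dimmer one read 11.04, 10.99 and 11.11 on depolarized arrays at 30 min against 9.35, 9.70 and 9.53 on controls, and 11.12, 10.73 and 10.91 on depolarized arrays at 2 h against 9.92, 10.05 and 9.77 on controls. Depolarized arrays were above controls throughout, and the depolarized arrays of both times overlapped. At 30 min the differences were 1.40 and 1.52 (adjusted p = 8.19e-09 and 3.14e-08), and at 2 h they were 0.90 and 1.01 (adjusted p = 2.43e-06 and 6.43e-06), the largest 2 h rises among the members. The 2 h response was smaller by 0.50 and 0.51 (adjusted p = 0.00926 and 0.0287), and the call at the dimmer probe set was lost without depolarized replicate 3, 5 or 6 or control replicate 1, 3, 4 or 5 (adjusted p between 0.0534 and 0.0848).

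Msmo1 encodes the methylsterol oxidase that removes methyl groups from the sterol ring after the Cyp51 step. It read 12.17, 12.07 and 12.12 on depolarized arrays at 30 min, against 10.84, 10.81 and 10.83 on controls. On depolarized arrays at 2 h it read 11.29, 11.06 and 11.32, against 11.07, 11.09 and 11.02 on controls. Replicate 5 after depolarization lay within the 2 h control range and the other two above it. The rise was 1.29 at 30 min (SE 0.07, adjusted p = 3.22e-09). At 2 h the difference of 0.17 missed the threshold (SE 0.07, adjusted p = 0.0985) and passed it without depolarized replicate 5 (adjusted p = 0.0114) or after median centring, quantile or loess normalization (adjusted p = 0.0295, 0.0373 and 0.0485). The response was smaller at 2 h by 1.13 (adjusted p = 2.8e-06), the most negative value among the members and 35th from the bottom of all probe sets.

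Insig1, an SREBP target whose protein holds SCAP and SREBP in the endoplasmic reticulum, is the feedback arm of the group. It read 11.97, 11.99 and 12.05 on depolarized arrays at 30 min, against 10.56, 10.53 and 10.63 on controls. At 2 h it read 11.41, 11.07 and 11.51 on depolarized arrays, against 10.53, 10.59 and 10.53 on controls. No depolarized array overlapped a control at either time, while the controls of both times overlapped. Insig1 rose by 1.43 at 30 min (SE 0.09, adjusted p = 1.33e-08) and by 0.78 at 2 h (SE 0.09, adjusted p = 1.78e-05), and its responses differed by -0.66 (adjusted p = 0.00226).

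At 2 h after depolarization, 6 of the 10 member probe sets were higher in depolarized cultures (Idi1, Insig1, Cyp51 and Fdps), the 2 of Fdft1 were lower, and those of Msmo1 and Sqle were not called. Over all probe sets 25.2% were called, 9.51% higher and 15.7% lower; median centring put 51.4% of all calls on the higher side, against 37.7% without it. The groups did not overlap for 8 of the 10 (6 above and 2 below), where 37.5% of all probe sets did not overlap, 15.4% above and 22.1% below. The median difference of the members was 0.54 at 2 h, and the median over all probe sets lay within 0.01 of 0. In the test between the responses, 9 of 10 were lower at 2 h than at 30 min and Fdps was not called, where 13% of all probe sets were called, 6.16% higher and 6.79% lower. For Idi1, Insig1, Cyp51, Msmo1 and Sqle this was a smaller rise at 2 h, and for Fdft1 a larger difference below its controls. From 30 min to 2 h, Fdft1 in depolarized cultures differed by 0.06 and -0.05, not called. In control cultures it was higher at 2 h by 0.48 and 0.38. The 2 treatment comparisons used separate controls. At 2 h, depolarized replicate 5 was the lowest of its 3 arrays in 8 of the 10 probe sets; its median over the control mean was 0.47, against 0.59 and 0.53 for replicates 4 and 6.

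The members also differed between collection times within 1 treatment. In control medium, 8 of 10 probe sets were higher at 2 h than at 30 min, 0 were lower, and the dimmer Idi1 probe set and Insig1 were not called. In this comparison 35.3% of all probe sets were called, 18.1% higher and 17.2% lower. The groups did not overlap for 9 of the 10, all above, where 49.5% of all probe sets did not overlap, 22.1% above and 27.5% below. Fdft1 differed by 0.48 and 0.38 and the brighter Idi1 probe set by 0.57 (adjusted p = 7.99e-05), Fdps by 0.33 (adjusted p = 0.000951), and Cyp51 by 0.32 and 0.39. The differences of Msmo1 (0.24, adjusted p = 0.0150) and Sqle (0.19, adjusted p = 0.0342) depended on single arrays: the Msmo1 call was lost without control replicate 5 and the Sqle call without control replicate 1, 3, 4 or 5. Both were also lost with quantile normalization (adjusted p = 0.0835 for Msmo1 and 0.131 for Sqle). The dimmer Idi1 probe set (0.25, adjusted p = 0.0547) was called without depolarized replicate 1, 4 or 5 or control replicate 3 or 6. Insig1 differed by -0.02 (SE 0.09, adjusted p = 0.866), a value that turned to 0.01 without control replicate 3.

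After depolarization, 5 of 10 probe sets were lower at 2 h than at 30 min and 1 was higher, where 41% of all probe sets were called, 21.8% lower and 19.2% higher. The groups of both times did not overlap for 6 of the 10 (1 above and 5 below), where 49.9% of all probe sets did not overlap, 21.6% above and 28.3% below. Msmo1 fell by 0.89, the dimmer Idi1 probe set by 0.85, the brighter one by 0.49, Insig1 by 0.68 and Sqle by 0.66, and Fdps rose by 0.29 (adjusted p = 0.00215). Cyp51 differed by -0.18 and -0.12 (adjusted p = 0.0905 and 0.352), and the first was called without depolarized replicate 1 (adjusted p = 0.0443). Both Fdft1 probe sets were within 0.06 of 0. Marker genes of cell types moved with collection time as well. All 8 measured neuronal markers were higher in 2 h controls than in 30 min controls, with a log2 of the summed level of 14.88 to 14.90 at 2 h against 13.72 to 13.91 at 30 min. Of the oligodendrocyte lineage markers 7 of 9 were lower, with a summed level of 11.69 to 11.93 at 2 h against 12.91 to 13.14 at 30 min. The bright Olig1 differed by -2.45, while the median difference of these 9 markers was -0.27, so their sum mostly follows Olig1. Of the progenitor markers 5 of 8 were lower, with a summed level of 14.79 to 14.88 at 2 h against 15.01 to 15.13 at 30 min. Pax6 was the 1 progenitor marker called higher in 2 h controls, by 1.03 (adjusted p = 3.11e-06), the largest difference in that list. Of 8 dopaminergic markers 5 were higher and 0 lower, and of 9 astrocyte markers 1 was higher and 4 were lower, where 18.1% of all probe sets were called higher and 17.2% lower between the controls. The part of these markers in the result was not tested.

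Some markers were called between treatments too, where 10.8% of all probe sets were higher and 13.1% lower at 30 min and 9.51% higher and 15.7% lower at 2 h. At 30 min, 3 of 8 dopaminergic markers were higher in depolarized cultures, with a log2 of the summed level of 11.10 to 11.15 against 10.66 to 10.88 in controls, and 4 of 8 at 2 h, with 11.61 to 11.83 in depolarized cultures against 11.55 to 11.67 in controls. Nr4a2, itself an activity-regulated gene, was one of them. Of 9 oligodendrocyte lineage markers 1 was lower at 30 min (summed level 12.58 to 12.87 in depolarized cultures, 12.91 to 13.14 in controls) and 2 at 2 h (11.52 to 11.62 in depolarized cultures, 11.69 to 11.93 in controls), shares near those of all probe sets. Pdgfra was called at both times, by -0.58 and -0.75 (limma adjusted p = 0.000207 and 3.34e-05). The median differences of the 9 markers were -0.05 at 30 min and 0.04 at 2 h. Of 9 astrocyte markers 0 were called at 30 min (summed level 14.06 to 14.16 in depolarized cultures, 14.11 to 14.18 in controls) and 1 was higher at 2 h. Of 8 neuronal markers 1 was higher at 30 min and 2 at 2 h. Nefm was called at both times, by 0.65 and 0.39 (adjusted p = 6.2e-06 and 0.0011). The neuronal list as a whole had median differences of 0.11 at 30 min and -0.04 at 2 h. Above 0 were 7 of the 8 at 30 min and 4 at 2 h. Of 8 progenitor markers 1 was lower at 30 min, Notch1 by 0.37 (adjusted p = 0.0064). At 2 h 1 progenitor marker was higher and 2 were lower, Hes5 by 0.75 and Pax6 by 0.47 (adjusted p = 3.3e-05 and 0.0055). No marker level is 0 on these arrays, which hold no detection calls. The part of these markers in the members' differences was not tested.

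Along the whole path from acetyl-CoA to cholesterol, 18 enzymes were measured, 6 of them members. In depolarized cultures at 30 min, 11 of the 18 rose, 1 fell and 6 were not called (median 0.47), where 10.8% of all probe sets were higher and 13.1% lower. At 2 h, 6 rose, 4 fell and 8 were not called (median 0.11), where 9.51% of all probe sets were higher and 15.7% lower. Of the 12 enzymes outside the members, 6 rose and 0 fell at 30 min, while 3 rose and 3 fell at 2 h.

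**Figure D2:**
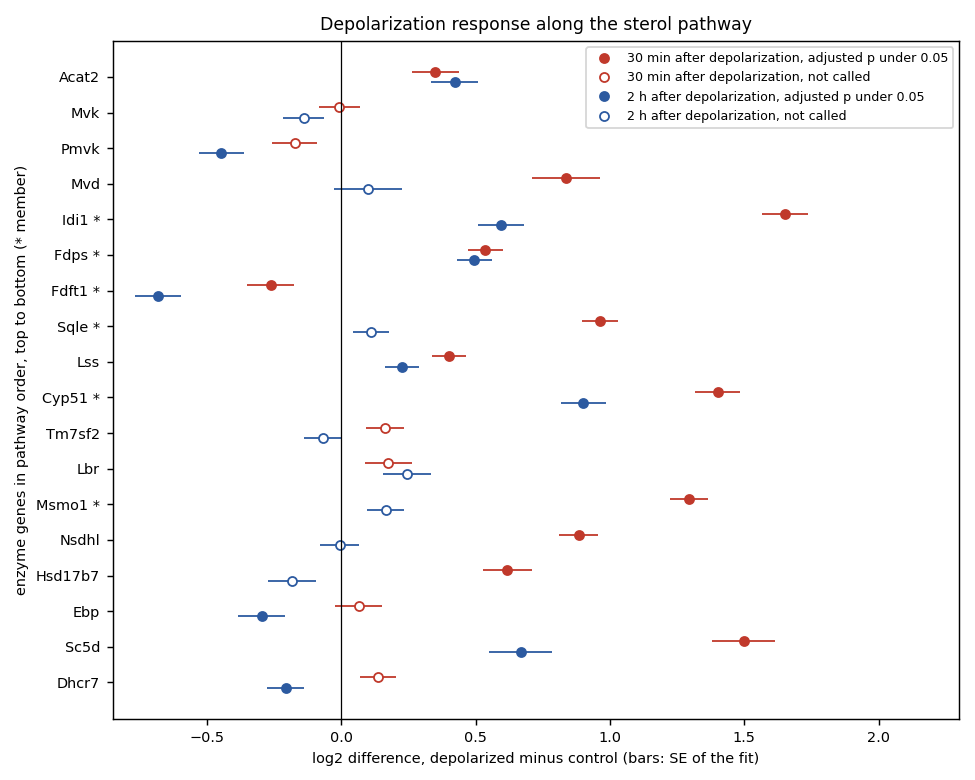
Log2 difference, depolarized minus control (horizontal axis, bars for the SE of the fit), for 18 sterol enzymes in the order of the path (vertical axis, asterisks for members), at 30 min (red) and 2 h (blue). Filled points passed an adjusted p of 0.05. Rises called at 30 min occur from Acat2 to Sc5d, and Fdft1 lies below 0 at both times.

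Sc5d, the desaturase that acts late in cholesterol synthesis, had the largest 30 min rise of these 12 enzymes. It read 10.82, 11.22 and 11.28 on depolarized arrays at 30 min, against 9.82, 9.47 and 9.53 on controls, and 10.86, 10.65 and 10.85 on depolarized arrays at 2 h, against 10.28, 10.05 and 10.04 on controls. Depolarized arrays lay above controls at both times, with rises of 1.5 and 0.67 (adjusted p = 1.64e-07 and 0.000671). Nsdhl, which removes carbon at the sterol ring after Msmo1, rose by 0.88 at 30 min (adjusted p = 2.32e-07) and differed by -0.01 at 2 h (adjusted p = 0.971), or by 0.04 after median centring. Mvd, the last enzyme before the Idi1 substrate, rose by 0.84 at 30 min (adjusted p = 0.000111) and differed by 0.10 at 2 h (adjusted p = 0.627). Hsd17b7, a reductase of the same demethylation steps, rose by 0.62 at 30 min (adjusted p = 8.1e-05) and differed by -0.18 at 2 h (adjusted p = 0.162). Lss, which folds squalene epoxide into lanosterol, rose by 0.40 and 0.23 (adjusted p = 0.000183 and 0.0149), and the call at 2 h needed depolarized replicate 4 (adjusted p = 0.0746 without it). Dhcr7, the last reductase, differed by 0.14 at 30 min (adjusted p = 0.184) and fell by 0.21 at 2 h (adjusted p = 0.0356), a call lost without depolarized replicate 4 or 5 or control replicate 4 or 5.

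Of 10 measured genes that process SREBP or control this step, 0 rose and 3 fell at 30 min (30% called, against 24% of all probe sets), and 1 rose and 4 fell at 2 h (50% called, against 25.2%). The medians were -0.12 and -0.15, against values within 0.02 of 0 over all probe sets. Srebf2, which encodes the SREBP that mainly drives sterol genes, differed by 0.12 at both times (SE 0.06, adjusted p = 0.201 each). Srebf1, whose products mainly drive fatty acid genes, fell by 0.28 at 30 min (adjusted p = 0.00783) and differed by -0.19 at 2 h (adjusted p = 0.0548), which passed without depolarized replicate 6 (adjusted p = 0.0283). Scap fell by 0.17 at 30 min (adjusted p = 0.0475, a call lost without depolarized replicate 2, 3 or 4 or control replicate 1, 2, 3, 4 or 5) and by 0.32 at 2 h (adjusted p = 0.000903). Mbtps1, the first of the SREBP proteases, fell by 0.25 and 0.26 (adjusted p = 0.00586 and 0.00512). Mbtps2, the second protease, differed by -0.19 at 30 min (adjusted p = 0.0678, or 0.0288 without control replicate 4) and fell by 0.30 at 2 h (adjusted p = 0.00694). Insig2, the paralogue of Insig1, differed by 0.14 and -0.11 (adjusted p = 0.288 and 0.395), and the first was called without depolarized replicate 2 (adjusted p = 0.0471).

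Of 19 measured lipid genes that SREBP1 is known to drive, 6 rose and 0 fell at 30 min (31.6% called, against 24% of all probe sets), and 4 rose and 5 fell at 2 h (47.4% called, against 25.2%). The list medians were -0.03 and -0.04. Elovl6, a fatty acid elongase, rose by 0.78 at 30 min (adjusted p = 7.18e-06) and by 0.26 at 2 h (adjusted p = 0.0420, lost without depolarized replicate 2, 4 or 6 or control replicate 4, 5 or 6). Lpin1, a phosphatidate phosphatase, rose by 0.49 at 30 min (adjusted p = 0.000793) and fell by 0.30 at 2 h (adjusted p = 0.0251, lost without depolarized replicate 4 or control replicate 4 or 5). Elovl5, an elongase of polyunsaturated fatty acids, rose by 0.26 and 0.42 (adjusted p = 0.00808 and 0.000230). Me1, which makes NADPH, rose by 0.29 at 30 min (adjusted p = 0.0426, lost without depolarized replicate 1, 2, 3 or 6 or control replicate 1, 2 or 4) and by 0.61 at 2 h (adjusted p = 0.000335). The probe sets of Fasn, fatty acid synthase, disagreed: the brighter one differed by 0.20 and 0.06 (adjusted p = 0.0302 and 0.522, the first lost without depolarized replicate 2 or 3 or control replicate 1, 2 or 3), and the other rose by 0.71 and 0.47.

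**Figure D3:**
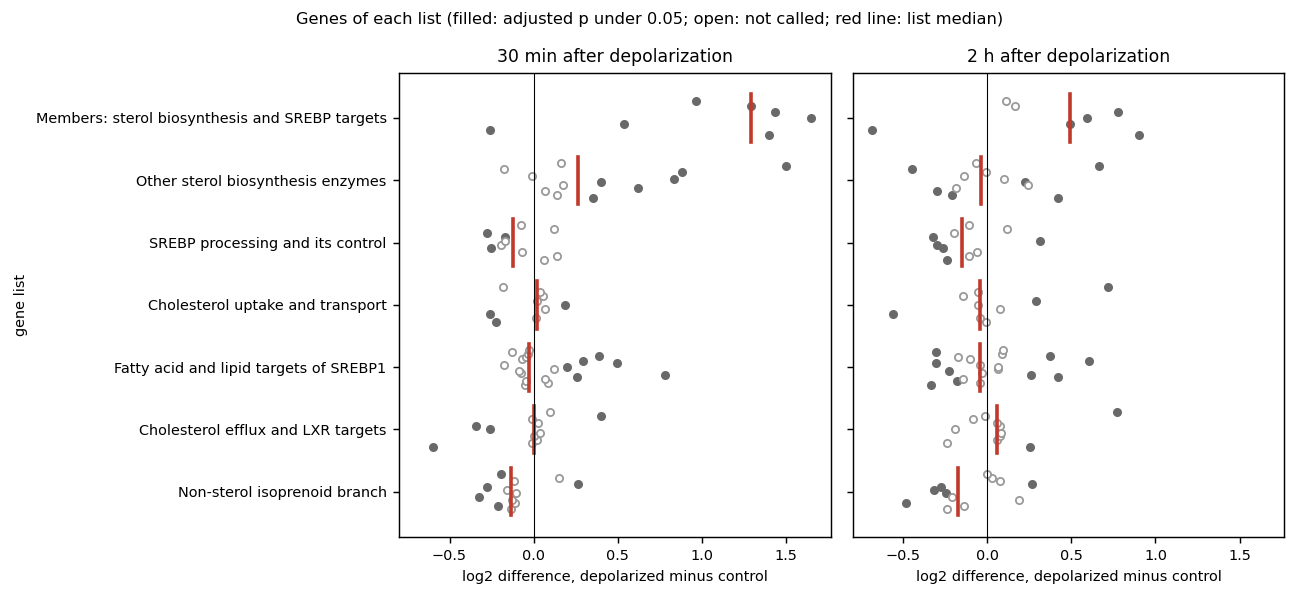
Log2 difference, depolarized minus control (horizontal axes), of every measured gene of the members and of 6 related lists (vertical axis), at 30 min (left) and 2 h (right). Filled points passed an adjusted p of 0.05 and vertical ticks are list medians. The member median is 1.29 at 30 min and 0.50 at 2 h, and those of the other lists lie between -0.13 and 0.26 at 30 min. Members and lists were chosen with earlier results of these data known.

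Of 9 genes of cholesterol uptake and transport, 1 rose and 2 fell at 30 min and 2 rose and 1 fell at 2 h. This is 33.3% called at each time, against 24% and 25.2% of all probe sets, with list medians of 0.02 and -0.04. Vldlr, a lipoprotein receptor that also binds reelin, differed by -0.18 at 30 min (adjusted p = 0.322) and rose by 0.72 at 2 h (adjusted p = 0.000297). Lrp8, the other reelin receptor, fell by 0.26 at 30 min (adjusted p = 0.0198, lost without depolarized replicate 1 or 2 or control replicate 1 or 2) and by 0.56 at 2 h (adjusted p = 7.73e-05). Scarb1, a receptor for high-density lipoprotein, rose by 0.29 at 2 h (adjusted p = 0.00170), and Lipa, the lysosomal lipase, fell by 0.22 at 30 min (adjusted p = 0.0317, lost without depolarized replicate 2 or 3 or control replicate 2 or 3).

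Among 11 genes of cholesterol efflux and LXR targets, 1 rose and 3 fell at 30 min (36.4% called, against 24% of all probe sets) and 2 rose and 0 fell at 2 h (18.2%, against 25.2%). Abca1 was not analysed here. Soat1, which esterifies cholesterol for storage, differed by 0.10 at 30 min (adjusted p = 0.608) and rose by 0.77 at 2 h (adjusted p = 0.000105). Abcg1, a sterol exporter, fell by 0.60 at 30 min (adjusted p = 8.59e-05) and rose by 0.25 at 2 h (adjusted p = 0.0459, lost without depolarized replicate 2, 5 or 6 or control replicate 1, 4, 5 or 6), and its other 2 probe sets were not called. Mylip, the ligase that degrades lipoprotein receptors, fell by 0.34 at 30 min (adjusted p = 0.00771) and differed by 0.08 at 2 h (adjusted p = 0.574). Smpdl3a, an LXR target, rose by 0.40 at 30 min (adjusted p = 0.0115, lost without depolarized replicate 3).

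In the branch that uses isoprenyl diphosphates outside sterols, 1 of 12 measured genes rose and 4 fell at each time (41.7% called, against 24% of all probe sets at 30 min and 25.2% at 2 h). Fntb, a subunit of farnesyltransferase, differed by -0.11 at 30 min (adjusted p = 0.276) and fell by 0.49 at 2 h (adjusted p = 7.32e-05). Pggt1b, a subunit of another protein prenyltransferase, fell by 0.32 at 2 h (adjusted p = 0.00322) and Pdss2, of coenzyme Q synthesis, by 0.25 (adjusted p = 0.00802). The probe sets of Nus1, of dolichol synthesis, went opposite ways at 30 min, by -0.32 and 0.48. Over all 6 lists, 15 of 73 genes rose and 12 fell at 30 min, and 13 rose and 17 fell at 2 h (37% and 41.1% called).

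Likeness among the genes was measured as the root mean square difference of log2 levels over the 12 arrays, each gene centred on its own mean, for 10411 genes. It is a description, since the members share arrays and treatment. Sqle lay closest to the mean profile of the 7 members (0.141) and Fdft1 farthest (0.601), where the median gene lay at 0.402. Cyp51 was the third closest of all genes to Idi1, and Idi1 the fourth closest to Cyp51. Sqle was the nearest member to Msmo1, at rank 7. Msmo1 was the nearest member to Insig1, at rank 19, and to Sqle, at rank 22. The nearest member to Fdps was Sqle, at rank 4942, and the nearest to Fdft1 was Fdps, at rank 9684. Outside the members, the genes closest to their mean were Gabpb1 (0.0629), Pou3f3 (0.0995), Cdr2 (0.101), Atf4 (0.103), Ndel1 (0.108), Elovl6 (0.120), Map7d1 (0.121) and Cul3 (0.124).

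Each member also had its own nearest gene. These were Sc5d for Idi1 (0.149), Pafah1b1 for Insig1 (0.110), Ifrd1 for Cyp51 (0.128), Nfat5 for Msmo1 (0.109), LOC100912167 for Fdps (0.0672), Mllt6 for Fdft1 (0.0775) and Phf13 for Sqle (0.0718). Sc5d is a sterol enzyme of the path. Gabpb1, closest to the mean of the members, averaged 10.88 ± 0.09 in depolarized cultures and 9.88 ± 0.08 in controls at 30 min, and 10.55 ± 0.07 in depolarized cultures and 10.27 ± 0.05 in controls at 2 h (SD, n = 3 each).

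**Figure D4:**
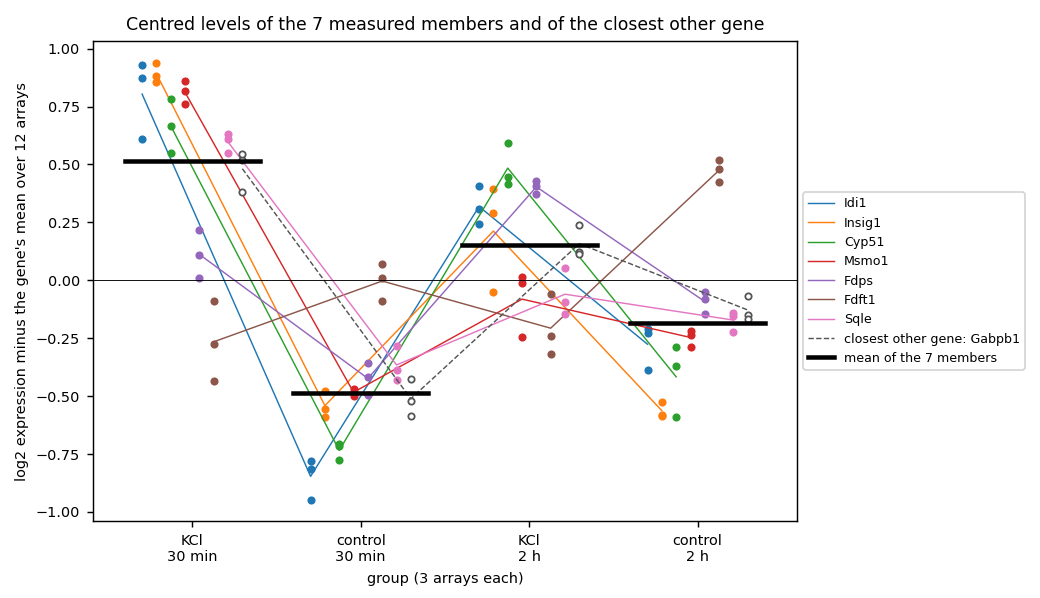
Log2 expression minus the mean of the gene over 12 arrays (vertical axis) for the 7 measured members (filled points, 1 colour each) and Gabpb1 (open points, dashed line) in the 4 groups (horizontal axis). Points are arrays, thin lines join group means of 1 gene and black bars are the mean of the members. Fdft1 is lower in depolarized cultures than in controls at both times, with its highest group in 2 h controls.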

How the data were processed

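Expression was measured on 12 Affymetrix arrays of rat ventral midbrain cultures, 1 array per sample. The authors deposited log2 values, 1 per probe set. Per the submitters' processing notes these are RMA summaries, with no version given. That the scale is log2 follows from the range of the values. Precision is limited by 3 arrays per group, and detection calls were not part of the values used here.

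Of 15923 probe sets, 57 array controls were dropped. The platform annotation, which may be outdated, gave a single symbol for 12783 of the rest, several for 312 and none for 2771. Group means were fitted on all 12 arrays with limma 3.58.1 under R 4.3.3 (lmFit and eBayes, 8 residual degrees of freedom, no block). The p-values are two-sided and were adjusted by Benjamini-Hochberg over the 15866 probe sets tested, at a threshold of 0.05. The contrasts were depolarized minus control at each time, the difference between these responses, and 2 h against 30 min within each treatment. The members and the lists were chosen with earlier results of these data known. For list counts, the brightest probe set over all arrays stood for its gene. The naming rule took, from each list, at most 4 genes past the threshold in a treatment comparison by the smallest p, plus a fixed set where measured, among them Srebf1, Srebf2, Scap, Insig2, Dhcr7, Lss, Fasn and Abca1 (some of this set are not reported here), the 8 genes closest to the mean of the members, and the nearest gene of each member. Markers and second probe sets were named with their values known.

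The alternatives were a fit of the arrays compared, median centring, quantile and loess normalization, removal of dim probe sets, array weights, other priors, an equal-variance test, stricter thresholds, a block for the replicate number, and leaving out each array. The fit was tested on simulated data.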

Additional observations from a re-analysis of the deposited data

Results flagged for a closer look

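The response to depolarization at 2 h differed from that at 30 min, by the test of the difference itself (limma, adjusted p under 0.05), for 13% of all 15866 probe sets. The 22 given here are those of the members and of the genes named from the pathway lists. Negative values are lower at 2 h. Among the members these were Idi1 with -1.06 and -1.10, Insig1 with -0.66, Cyp51 with -0.50 and -0.51, Msmo1 with -1.13, Fdft1 with -0.42 and -0.43, and Sqle with -0.85. Among the other sterol enzymes, Sc5d had -0.83, Nsdhl -0.89, Hsd17b7 -0.80, Mvd -0.74 and Dhcr7 -0.34. The fatty acid genes Elovl6 and Lpin1 had -0.52 and -0.80, and the farnesyltransferase gene Fntb -0.37. The difference was positive for Vldlr (0.90), Scarb1 (0.27), Soat1 (0.67), Abcg1 (0.85) and Mylip (0.42). The call of Dhcr7 was lost without depolarized replicate 3, 4 or 5 or control replicate 2, 4 or 5, that of Scarb1 without depolarized replicate 2, 3, 4, 5 or 6 or control replicate 1, 2, 3, 4 or 5, and that of Mylip without depolarized replicate 3, 4 or 6 or control replicate 1, 2, 4 or 6. No test of single outlying arrays was made within groups of 3.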

How the results depend on the processing

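The rises of the members at 30 min were called in 8 of 10 probe sets with each single array left out. Their falls at 30 min numbered 2, but 1 when only the arrays compared were fitted or after median centring, and 0 with an ordinary equal-variance test, at an adjusted p of 0.01 or with a 1.5-fold minimum. That minimum also ended the calls of Fdps, which was 1.45-fold higher at 30 min and 1.41-fold at 2 h. It left 5 of the 9 lower response differences, 0 of the 8 rises between controls and 0 of the 1 rise between depolarized cultures. Without single arrays the falls at 30 min ranged from 0 to 2, the lower response differences from 6 to 9, the rises between controls from 6 to 9 and the rises at 2 h from 6 to 7.

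For the 73 other genes, the higher and lower counts with the 1.5-fold minimum were 5 and 1 at 30 min (15 and 12 without it), 4 and 0 at 2 h (13 and 17), 3 and 5 for the response difference (7 and 8), 3 and 0 between controls (27 and 11) and 4 and 1 between depolarized cultures (19 and 14). At an adjusted p of 0.01 the lower count was 5 at 30 min and 7 between controls, the counts at 2 h were 8 and 9, and those of the response difference 3 and 4. Median centring left 5 lower calls at 30 min, and the ordinary test 7 there and 3 higher response differences. Without the dimmest 50% of probe sets, 1 higher response difference and 7 lower calls between controls were left. With single arrays left out, lower calls ranged from 6 to 12 at 30 min (6 or 7 without depolarized replicate 2 or control replicate 1 or 3) and from 9 to 20 at 2 h (9 without depolarized replicate 4, 11 without control replicate 4 or 5), and higher response differences from 4 to 6.

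Differences near 0 changed sign. With single arrays left out, that of Fdft1 between depolarized cultures ranged from -0.0249 to 0.148 at the brighter probe set and from -0.135 to 0.0541 at the dimmer one, that of Fdps between responses from -0.0902 to 0.0114, that of Insig1 between controls from -0.0457 to 0.00876 and that of Nsdhl at 2 h from -0.0503 to 0.0251. Nsdhl at 2 h was 0.0380 with median centring, 0.0386 with quantile and 0.0405 with loess normalization. The causes were not tested. Same-numbered arrays correlated between -0.322 and 0.236 in their deviations from the group means, so the numbers were not taken as pairs. Arrays of different number correlated between -0.415 and 0.354, and pairing under other numbers was not tested. With the replicate number as a block, the member counts were 8 and 2 at 30 min, 6 and 2 at 2 h and 0 and 9 for the response difference; the rises between controls were 7, with Sqle lost (0.19, adjusted p = 0.0734). Among the other genes the block ended the calls of Scap, Fasn, Me1 and Lipa at 30 min, of Dhcr7 and Elovl6 at 2 h, and of Dhcr7 and Scarb1 between responses (adjusted p between 0.0516 and 0.0994).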
